A study of Camellia sinensis with 12 samples.

Results

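The minor members of the miR159 family of tea are the IDs that begin with cas-MIR159- in the deposited counts, other than the abundant cas-MIR159-1 and cas-MIR159-2. They were chosen by ID, with results of these data known, and they are 45 of the 47 listed miR159 IDs and 45 of all 650 listed miRNA IDs. Of these, 29 had at least 10 counts summed over the 12 libraries and are described singly, and 16 had fewer and are given as a sum. Small RNAs were sequenced from shoots of Camellia sinensis var. XYMJ (Xinyang Maojian green tea). The 3-year-old plants came from the gardens of a single plantation, with no treatment named. The tissues were the bud (sBud), the first leaf below it (sL1), the older second leaf (sL2) and the piece of stem between both leaves (sS1). Each tissue has 3 libraries, which the methods describe as biological replicates; which plants went into which library is not given, so p-values measure the spread between these samples. Tissue and replicate follow the sample titles, since the deposited tissue field says Leaf for all of them, and miRNA counts hold no tissue markers with which the labels could be checked.

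miR159 is one of the oldest miRNA families of land plants. In Arabidopsis it guides the cleavage and silencing of mRNAs of GAMYB-like transcription factors such as MYB33 and MYB65, which act in gibberellin responses, in anthers and in seeds. Plants that lose miR159 in Arabidopsis have curled leaves and stunted growth, so the family is known there as a regulator of leaf form. miR319 is its closest relative in sequence and acts mainly on TCP genes. Families like this one are listed in tea as many IDs that differ by a few nucleotides. The deposited counts came from alignments that allowed up to 2 mismatches, and the rule for a read that matches several IDs is not given in the sources used here. Counts of closely related members are therefore uncertain where their reads could be shared. The mature sequences of these IDs were not analysed here.

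Libraries held 387015 to 746562 counts, and no pair of replicates was a copy of the other, since each pair differed by more than sampling noise. A count of 0 allows up to 3 counts in a library, which is 4.26 to 8.51 CPM over the 12 libraries. CPM is the count per 1000000 of the library total scaled by the TMM factor of edgeR. These limits and the intervals below cover counting error only. Differences are called here when the absolute log2 fold change is above 1 and the Benjamini-Hochberg adjusted p from the quasi-likelihood test of edgeR is below 0.05 over all 222 tested IDs. Fitted fold changes against a tissue with few counts depend on the prior count, so a lower bound against 3 counts per library is given where a tissue had 0 counts in every library. Where a tissue had 1 to 3 counts in total, the ratio of a called difference is given with its exact 95% interval.

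Minor members made up a small share of the miRNA counts, and that share was highest in the second leaf. They held 1.83%, 1.60% and 1.79% of the counts in the 3 sBud libraries, 1.17%, 1.22% and 1.23% in sL1, 3.73%, 3.97% and 3.64% in sL2, and 0.985%, 1.08% and 0.805% in sS1. The second leaf libraries all lay above all the others, and the stem libraries all lay below them. The means were 3.78 ± 0.17% in sL2 (SD, n = 3), 1.74 ± 0.13% in sBud, 1.21 ± 0.031% in sL1 and 0.958 ± 0.14% in sS1. In whole tissues, fewer cells that make a miRNA and less of it per cell cannot be told apart. No p is given for this sum, because the members were chosen with results of these data known. Relative to the whole miR159 family, the minor members held 7.34 ± 0.062% in sL2, and 3.53 ± 0.17% in sBud, 3.51 ± 0.41% in sL1 and 3.62 ± 0.43% in sS1. The last 3 tissues differed by less than their spread. In sL2 the minor members thus took a larger part of the family, while cas-MIR159-1 and cas-MIR159-2 together held 47.8 ± 1.9% of the counts there, 47.6 ± 1.2% in sBud, 33.4 ± 3.4% in sL1 and 25.5 ± 2.9% in sS1.

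**Figure D1:**
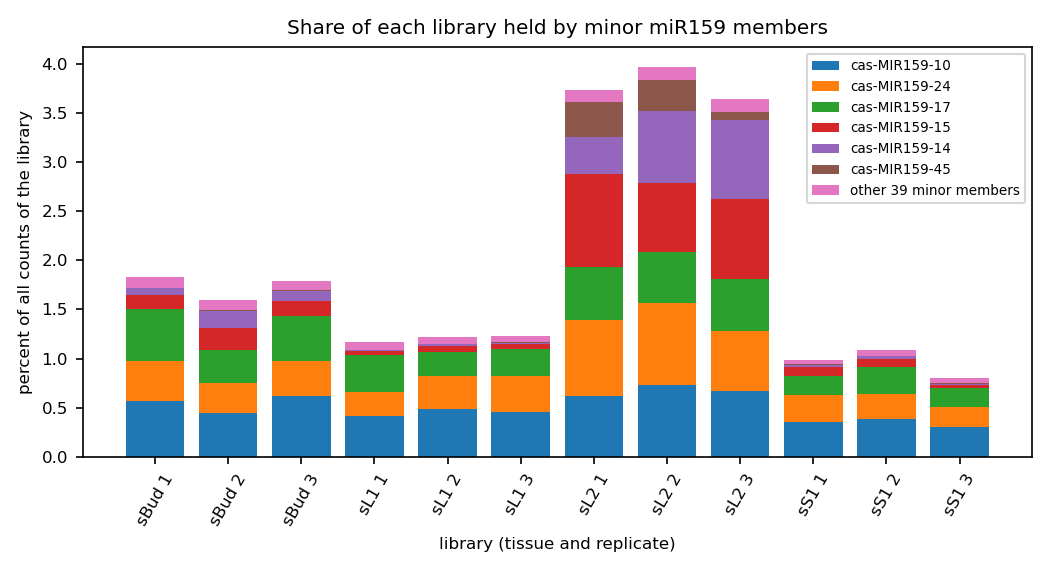
Percent of all counts of a library that fell on minor miR159 members (y axis) in each of the 12 libraries (x axis), stacked by the 6 most abundant members and the sum of the other 39. The sL2 bars reach 3.64% to 3.97%, and no bar of another tissue exceeds 1.83%.

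The 6 most abundant minor members carried 95.6% of the 129477 counts, and the other 39 shared 4.45%. cas-MIR159-10 was the most abundant minor member in all 9 libraries of sBud, sL1 and sS1. In sL2 it was overtaken by cas-MIR159-15 in replicates 1 and 3 and by cas-MIR159-24 in replicate 2. The make-up shifted accordingly. cas-MIR159-10 held 31.2 ± 3.2% of the minor counts in sBud, 37.7 ± 2.1% in sL1 and 36.3 ± 1.0% in sS1, and 17.8 ± 1.0% in sL2. cas-MIR159-15 held 21.9 ± 3.9% in sL2, against 10.2 ± 3.4% in sBud, 6.56 ± 2.6% in sS1 and 4.27 ± 1.1% in sL1. cas-MIR159-14 held 16.8 ± 6.2% in sL2, but 6.52 ± 3.4% in sBud, 2.58 ± 0.56% in sS1 and 0.882 ± 0.49% in sL1. cas-MIR159-10 thus led the minor members everywhere but in the second leaf.

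**Figure D2:**
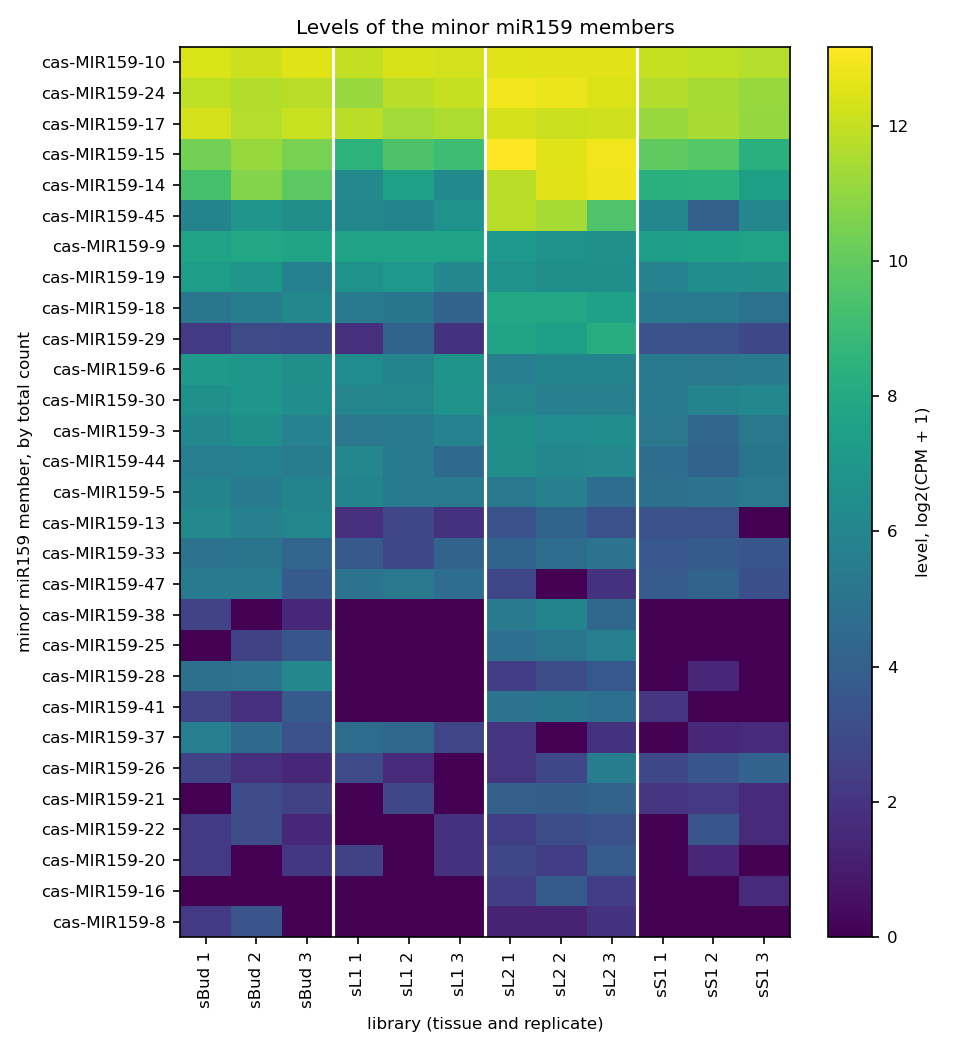
Level of the 29 minor miR159 members with at least 10 counts (rows, by total count) in the 12 libraries (columns, 3 per tissue), as log2(CPM + 1). The top rows are high in every library, and several lower rows, such as cas-MIR159-38 and cas-MIR159-25, are dark in all sL1 and sS1 libraries.

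Across the 29 members, the highest mean level was in sL2 for 18 and in sBud for 11, and in sL1 or sS1 for 0. The same count over all tested IDs was not made. Some of these leads lie within the spread, such as that of cas-MIR159-19 (115 ± 57 CPM in sBud and 103 ± 29 in sL1). In all, 19 members were called in at least 1 of the 6 comparisons of tissues, and 10 in none. The 19 are 65.5% of the members, against 56.3% of all 222 tested IDs called at least once. In sBud vs. sS1, 7 of 29 members (24.1%) were higher in sBud and 0 were lower. Of all 222 tested IDs, 22.5% were called, 11.7% as higher and 10.8% as lower, so the members' total was close to the background while their direction was one-sided. With library size as the only scaling the split of all tested IDs was 34 higher and 19 lower, in place of 26 and 24, and 10 members were higher. The median log2 fold change was 0.96 over the members and 0.06 over all tested IDs, or 0.80 and 0.05 with IDs that had 0 counts in a tissue set at their bound. Libraries did not overlap for 15 members, 14 of them higher in sBud, and for 41.0% of all tested IDs (21.6% higher in sBud and 19.4% lower). With an unadjusted p below 0.05 and the same minimum fold change, 12 members were higher and 0 lower, where 29.3% of all tested IDs were called in either direction. An unadjusted p below 0.05 alone was found for 16 members and for 89 of all 222 tested IDs.

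In sBud vs. sL1, 5 of 29 (17.2%) were higher in sBud and 0 were lower, where 12.6% of all tested IDs were called (7.66% higher and 4.95% lower). The 5 were cas-MIR159-28, cas-MIR159-41, cas-MIR159-13, cas-MIR159-14 and cas-MIR159-15. The medians were 0.49 and 0.00, or 0.18 (23 members) and -0.0011 (190 IDs) at the bounds. Libraries did not overlap for 6 of 29 members, all higher in sBud. Of all tested IDs, 25.7% did not overlap, 13.1% higher in sBud and 12.6% lower. The bud was thus never called below the stem or the first leaf for any of the 29 members.

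More members differed in comparisons with the second leaf. In sBud vs. sL2, 5 members were higher in sBud and 9 were higher in sL2, 14 of 29 (48.3%) in all, while 38.7% of all tested IDs were called (18.0% higher in sBud and 20.7% higher in sL2). The median log2 fold change was -0.65 over the members and 0.00 over all tested IDs (-0.25 and 0.00 at the bounds). In sL1 vs. sL2, 2 members were higher in sL1 and 12 in sL2, where 36.0% of all tested IDs were called (16.7% higher in sL1 and 19.4% higher in sL2). The medians were -1.61 and 0.11, or -1.06 and 0.01 at the bounds. In sS1 vs. sL2, 1 member was higher in sS1 and 13 in sL2, where 35.6% of all tested IDs were called (17.6% higher in sS1 and 18.0% higher in sL2). With library size as the only scaling that split of all tested IDs was 27 and 47, in place of 39 and 40, and the members gave 0 higher and 16 lower in sS1. The medians were -1.50 and -0.02, or -1.50 and -0.04 at the bounds. Libraries did not overlap for 21 members in sBud vs. sL2 and for 23 in each of the other 2 comparisons, against 50.9%, 53.2% and 50.9% of all tested IDs. Nearly all members that changed between sL2 and sL1 or sS1 were higher in sL2, whereas against sBud both directions occurred. The 3 comparisons share the sL2 libraries and are not independent of each other.

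Between the stem and the first leaf, 0 of 29 members were called, as were 0% of all tested IDs with edgeR, and DESeq2 called 0 members. The median log2 fold change was -0.02 over the members and -0.01 over all tested IDs. At the bounds it was -0.31 over 21 members and -0.01 over 182 IDs. No member kept there had 0 counts in a tissue, so the members' median moved only because the other members were left out. Libraries did not overlap for 5 members, all lower in sS1, against 9.01% of all tested IDs that were lower, 7.21% that were higher and 16.2% in all. An unadjusted p below 0.05 was found for 3 members and for 30 of all 222 tested IDs. An absolute log2 fold change above 1 was also found for 2 of these members, and 7.21% of all tested IDs met both rules. cas-MIR159-37 had counts of 0, 1 and 1 in sS1 and of 10, 10 and 2 in sL1, a 14.7-fold lower level in sS1 (95% exact interval 3.60 to 129, edgeR adjusted p = 0.142). cas-MIR159-14 had 197, 196 and 86 counts in sS1 and 30, 95 and 26 in sL1, and the libraries overlapped (log2 fold change 1.29, edgeR adjusted p = 0.199). Without sL1 replicate 2, its highest sL1 library, it was called (log2 fold change 1.98, edgeR adjusted p = 0.0277), and without the filter on low counts both were (edgeR adjusted p = 0.000255 for cas-MIR159-14 and 0.0492 for cas-MIR159-37). The share of all IDs called in these settings is not given here, so these calls have no background.

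**Figure D3:**
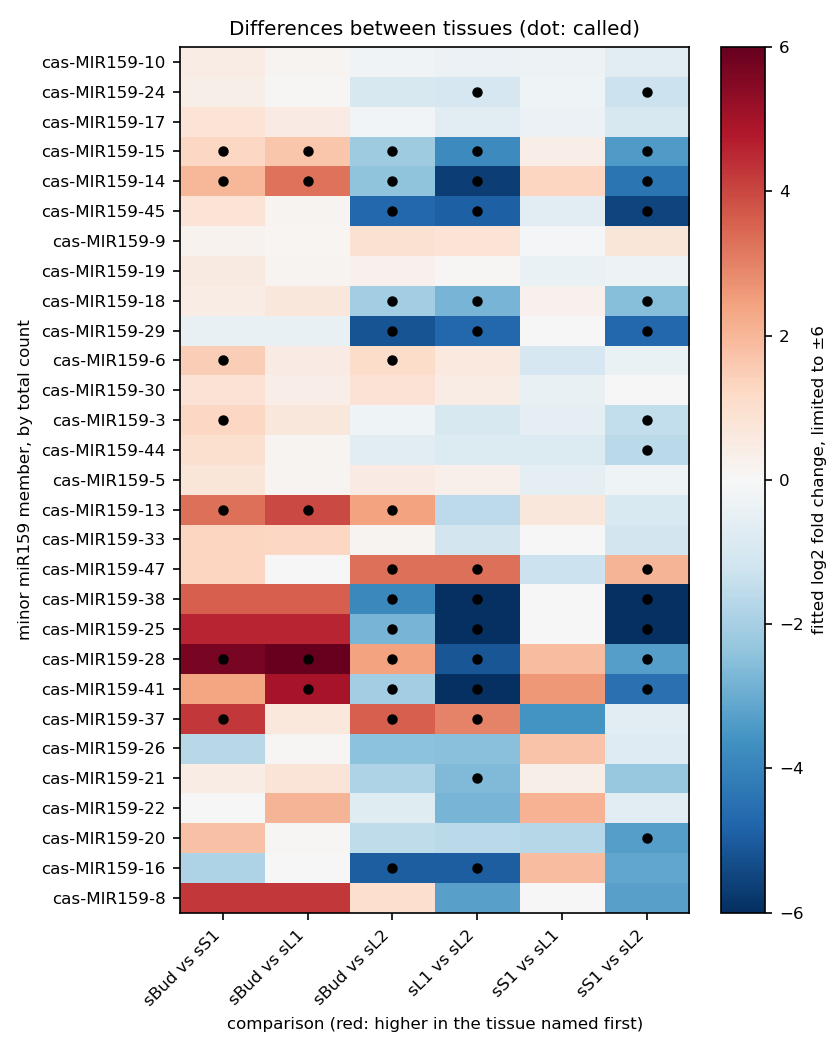
Fitted log2 fold change (colour, limited to ±6) of the 29 members (rows) in the 6 comparisons of tissues (columns), red where the tissue named first was higher, with a dot for each called difference. Fitted values against a tissue at 0 counts are no measured size. Dots lie mostly in blue cells of the 3 comparisons with sL2, in red cells of the comparisons of sBud with sS1 and sL1, and in no cell of sS1 vs. sL1.

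A group of 8 members was higher in sL2 than in each of the 3 other tissues: cas-MIR159-15, cas-MIR159-14, cas-MIR159-45, cas-MIR159-18, cas-MIR159-29, cas-MIR159-38, cas-MIR159-25 and cas-MIR159-41. This pattern was found in 27.6% of the 29 members and in 11.7% of all tested IDs. cas-MIR159-15 had 6101, 3959 and 5278 counts in sL2, 739, 917 and 859 in sBud, 150, 360 and 193 in sL1, and 639, 469 and 158 in sS1. Every sL2 library was above all others, and sBud was intermediate. The means in CPM, in the same order of tissues, were 7558 ± 1613 (SD, n = 3), 1707 ± 503, 540 ± 176 and 714 ± 347. It was named here after its values were seen, as was cas-MIR159-14, because both combine high counts with a called difference in 5 comparisons. The log2 fold change of cas-MIR159-15 was -2.15 (standard error 0.38, edgeR adjusted p = 0.000445) for sBud vs. sL2 and -3.81 (0.41, edgeR adjusted p = 4.48e-06) for sL1 vs. sL2. It was also higher in sBud than in sL1 (1.66, standard error 0.38, edgeR adjusted p = 0.00778) and than in sS1 (1.26, standard error 0.37, edgeR adjusted p = 0.0187). The last difference was lost without sBud replicate 2 (edgeR adjusted p = 0.0741) and without sS1 replicate 3 (edgeR adjusted p = 0.0573).

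cas-MIR159-14 followed the same order with wider differences. Its counts were 2391, 4052 and 5233 in sL2, 353, 674 and 537 in sBud, 197, 196 and 86 in sS1, and 30, 95 and 26 in sL1. The tissues sL2 and sBud stood apart from each other and from both other tissues in every library. Its log2 fold change was -2.40 (standard error 0.44, edgeR adjusted p = 0.000578) for sBud vs. sL2 and -5.67 (standard error 0.52, edgeR adjusted p = 9.62e-07) for sL1 vs. sL2. The second is a 50.7-fold difference in level. sBud was also above sL1 by 3.26 (standard error 0.47, edgeR adjusted p = 0.000294) and above sS1 by 1.97 (standard error 0.44, edgeR adjusted p = 0.00395). Without sL1 replicate 2, the log2 fold changes against sL1 were 3.93 for sBud and -6.27 for sL1 vs. sL2.

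cas-MIR159-45, which is read as the csn-miR159-45 that the study chose for qRT-PCR, had 93.6% of its 4911 counts in sL2. The sL2 libraries had 2278, 1793 and 528 counts, sBud had 32, 46 and 53, sL1 had 27, 31 and 38, and sS1 had 44, 9 and 32. Even the lowest sL2 library was far above every other one, but the sL2 libraries differed widely among themselves, and their mean of 2298 CPM had an SD of 1389. The log2 fold change was -4.71 (standard error 0.61, edgeR adjusted p = 2.76e-05) for sBud vs. sL2, -4.89 (0.62, edgeR adjusted p = 1.83e-05) for sL1 vs. sL2 and -5.51 (0.64, edgeR adjusted p = 9.49e-06) for sS1 vs. sL2. Without sL2 replicate 3, the lowest of that tissue, these were -5.13, -5.31 and -5.93, and without replicate 1, the highest, they were -4.17, -4.34 and -5.04. Among sBud, sL1 and sS1, its libraries overlapped. The log2 fold change between sBud and sS1 was 0.80 (standard error 0.57, edgeR adjusted p = 0.32), 0.18 for sBud vs. sL1 (standard error 0.57, edgeR adjusted p = 0.889) and -0.62 for sS1 vs. sL1 (standard error 0.58, edgeR adjusted p = 0.638). Within sL2, replicate 3 had the fewest counts of cas-MIR159-45 and the most of cas-MIR159-14, while replicate 1 had the most of cas-MIR159-45 and the fewest of cas-MIR159-14.

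Among the less abundant members of this group, cas-MIR159-29 had 136, 112 and 208 counts in sL2 and at most 9 in any other library. Its 3 other tissues had 2, 3 and 4 (sBud), 1, 9 and 1 (sL1), and 6, 5 and 3 (sS1). Its log2 fold change for sBud vs. sL2 was -5.18 (standard error 0.58, edgeR adjusted p = 9.08e-06), the largest absolute fitted value among the members in that comparison. For sL1 vs. sL2 it was -4.72, and -6.27 without sL1 replicate 2. cas-MIR159-18 was counted 152, 155 and 131 times in sL2, 19, 18 and 41 times in sBud, 17, 17 and 6 times in sL1, and 27, 23 and 14 times in sS1. Its level in sL2 was 216 ± 26 CPM, and the other means lay between 30.5 and 50.1 CPM. It was higher in sL2 than in each of them, by log2 fold changes of 2.10 to 2.80 in size.

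The remaining 3 were seen almost only in sL2 and sBud. cas-MIR159-38 had 28, 40 and 14 counts in sL2, 3, 0 and 1 in sBud, and 0 in all 6 libraries of sL1 and sS1. It was at least 5.66-fold lower in sL1 (edgeR adjusted p = 0.00099) and at least 7.60-fold lower in sS1 than in sL2 (edgeR adjusted p = 0.000724). Against sBud the log2 fold change was -3.87 (standard error 0.84, edgeR adjusted p = 0.0039), and -5.02 without sBud replicate 1. cas-MIR159-25 had 18, 23 and 35 counts in sL2, 0, 2 and 6 in sBud, and 0 in all libraries of sL1 and sS1. It was at least 5.15-fold lower in sL1 (edgeR adjusted p = 0.00173) and at least 6.92-fold lower in sS1 (edgeR adjusted p = 0.00117) than in sL2. Its log2 fold change for sBud vs. sL2 was -2.79, and it was -2.14 without sBud replicate 1 and -3.94 without sBud replicate 3. This difference was lost without sBud replicate 2 (edgeR adjusted p = 0.0555) or sL2 replicate 3 (edgeR adjusted p = 0.0656), and with DESeq2.

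cas-MIR159-41 had 21, 22 and 19 counts in sL2, 3, 1 and 7 in sBud, 0, 0 and 0 in sL1, and 2, 0 and 0 in sS1. It was at least 4.24-fold lower in sL1 than in sL2 (edgeR adjusted p = 0.000656). Against sS1 its level in sL2 was 25.9-fold higher (95% exact interval 6.88 to 219), where both sS1 counts came from replicate 1. It was also called higher in sBud than in sL1 (edgeR adjusted p = 0.0348), but its mean of 6.68 CPM in sBud lies within what 3 counts per library allow in sL1, so no fold change is given. This call was lost without either of sBud replicates 1 and 3, without any 1 of the sL1 libraries and without sL2 replicate 3 (edgeR adjusted p from 0.0504 to 0.136), and in a fit of both tissues alone (edgeR adjusted p = 0.0835). The difference between sBud and sL2 was lost without any 1 of sBud replicates 1 and 2 or the 3 sL2 libraries (edgeR adjusted p from 0.0534 to 0.0967), and its log2 fold change of -2.10 was -2.81 without sBud replicate 3. It was also lost with DESeq2 and with no filter. For these rare members, the differences of sL2 from sL1 and sS1 were thus kept under every alternative tried. The difference of sL2 from sBud was also kept for cas-MIR159-38, but not for cas-MIR159-25 and cas-MIR159-41.

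**Figure D4:**
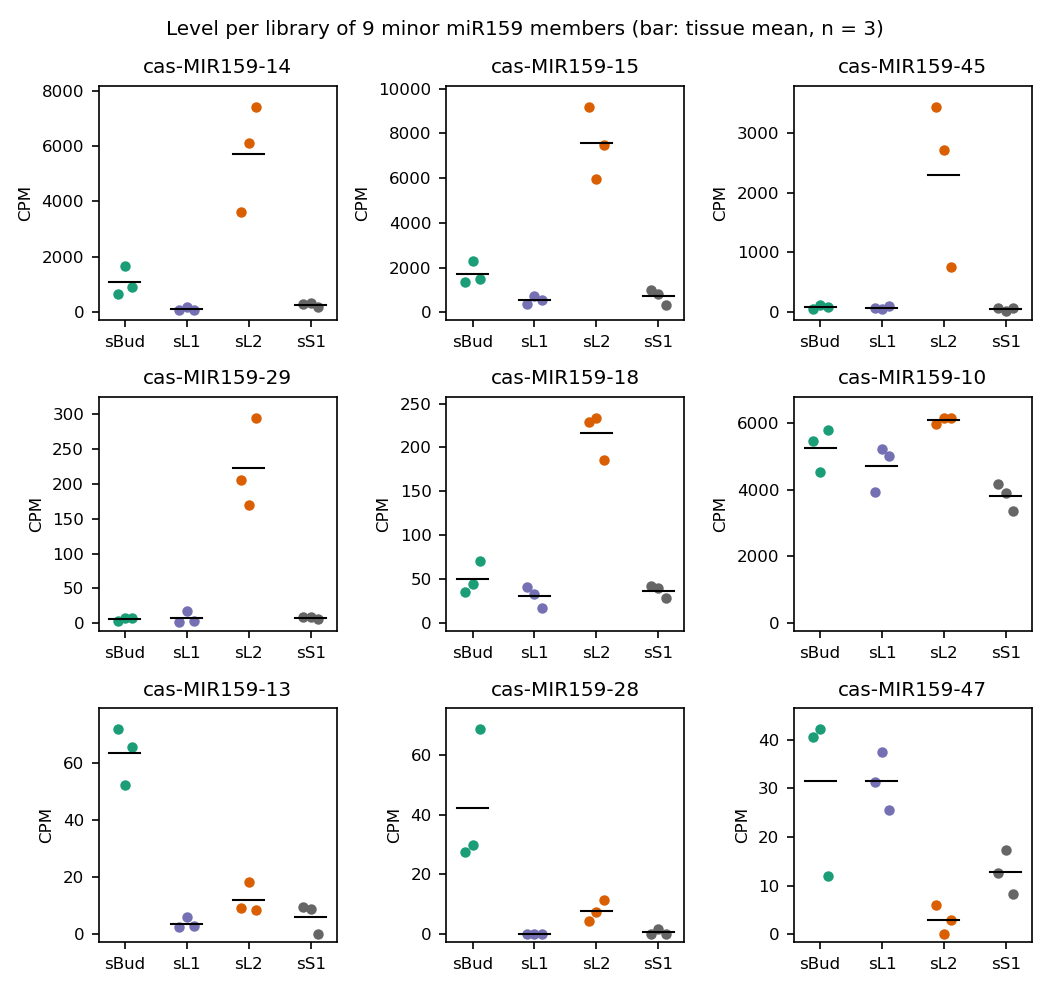
Level in CPM (y axes, linear, a different range per panel) of 9 minor members in the 3 libraries of each tissue (points), with the tissue mean (bar). In cas-MIR159-14, cas-MIR159-15, cas-MIR159-45, cas-MIR159-29 and cas-MIR159-18 every sL2 point is above all others, in cas-MIR159-13 and cas-MIR159-28 every sBud point is, and in cas-MIR159-47 the sL2 points are the lowest.

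A further 7 members (24.1%) were higher in sL2 than in 1 or 2 other tissues, as were 16.7% of all tested IDs. cas-MIR159-24, the second most abundant minor member, had 4951, 4674 and 3972 counts in sL2, 2094, 1271 and 1974 in sBud, 924, 1808 and 1435 in sL1, and 2041, 1526 and 1100 in sS1. The sL2 level of 6722 ± 959 CPM was about 2.48-fold that of sS1 (log2 fold change -1.31, standard error 0.23, edgeR adjusted p = 0.000503). Against sBud the difference had an edgeR adjusted p of 0.00416 but a log2 fold change of -0.95, just under the minimum of 1. Against sL1 it was -1.03, just over it, and it dropped to -0.81 without sL1 replicate 1, -0.80 without sL2 replicate 1 and -0.93 without sL2 replicate 2. That call was also lost when cas-MIR159-1 and cas-MIR159-2 or the 5 most abundant IDs were left out of the normalization, and with the filter of edgeR. cas-MIR159-3 had 62, 53 and 62 counts in sL2, 38, 38 and 33 in sBud, 15, 22 and 20 in sL1, and 23, 11 and 18 in sS1. cas-MIR159-44 had 59, 46 and 51 in sL2, 26, 22 and 26 in sBud, 28, 21 and 8 in sL1, and 16, 10 and 16 in sS1. Both were higher in sL2 than in sS1 (log2 fold changes -1.50 and -1.61, edgeR adjusted p = 0.00467 and 0.00611). cas-MIR159-28 is described with the bud. The other 3 had a mean of at most 10.3 counts in any tissue. cas-MIR159-21 had 10, 9 and 12 counts in sL2, 0, 3 and 0 in sL1, 0, 3 and 3 in sBud, and 2, 2 and 1 in sS1. It was 6.49-fold higher in sL2 than in sL1 (95% exact interval 2.02 to 33.2, edgeR adjusted p = 0.0438). That call was lost without sL1 replicate 1 or 3, any 1 of the sL2 libraries, or sS1 replicate 2 or 3 (edgeR adjusted p from 0.0511 to 0.131), and with DESeq2, with no filter and with the normalization without cas-MIR159-1 and cas-MIR159-2. All 3 sL1 counts came from replicate 2. cas-MIR159-16 had 14 of its 15 counts in sL2 and was called against sBud and sL1, where it had 0 counts, so close to the limit of a count of 0 that no fold change is given. The first call was lost without sBud replicate 1 or 3 or sL2 replicate 2, the second without any 1 sL1 library or sL2 replicate 2. Both were also lost with DESeq2 and with no filter on low counts. cas-MIR159-20 had 16 of its 24 counts in sL2 and was called 13.4-fold higher there than in sS1, where it had 1 count (95% exact interval 2.08 to 561, edgeR adjusted p = 0.0377). This was lost without any 1 of the sL2 libraries or sS1 replicate 1 or 3, with DESeq2 and with no filter. These last 2 members lie near the limit of the depth.

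A group of 9 members was higher in sBud than in at least 1 other tissue, and 2 of them exceeded all 3. Over all tested IDs these shares were 25.2% and 2.70%, against 31.03% and 6.90% of the members. cas-MIR159-13 had 39, 21 and 38 counts in sBud, 1, 3 and 1 in sL1, 6, 12 and 6 in sL2, and 6, 5 and 0 in sS1. The sBud libraries did not overlap with any other. Its mean level was 63.2 ± 9.96 CPM in sBud and between 3.72 and 11.9 CPM in the other tissues. The log2 fold change was 3.29 (standard error 0.64, edgeR adjusted p = 0.0016) for sBud vs. sS1, 2.39 (0.59, edgeR adjusted p = 0.00435) for sBud vs. sL2, and 3.96 (0.71, edgeR adjusted p = 0.00149) for sBud vs. sL1. Without sL1 replicate 2 the last was 4.54. cas-MIR159-28 had 15, 12 and 40 counts in sBud, 3, 5 and 8 in sL2, 0, 1 and 0 in sS1, and 0 in every sL1 library. Its bud level exceeded that of sL1 at least 5.83-fold (edgeR adjusted p = 0.000872) and that of sS1 74.5-fold (95% exact interval 12.9 to 2986, edgeR adjusted p = 0.000536). The wide interval comes from the single sS1 count in replicate 2. Against sL2 it was 5.28-fold higher, and that call was lost without sBud replicate 3 (log2 fold change 1.84 in place of 2.40, edgeR adjusted p = 0.0579). It was also called higher in sL2 than in sS1 and sL1, but the sL2 mean of 7.81 CPM is near the limit that a count of 0 allows, so no fold is given against sL1. It was 13.4-fold that of sS1 (95% exact interval 2.08 to 561). The sS1 vs. sL2 call was lost without sL2 replicate 3 or sS1 replicate 1 or 3 (edgeR adjusted p from 0.0656 to 0.0793).

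cas-MIR159-6 and cas-MIR159-37 were higher in sBud than in sS1 and sL2. cas-MIR159-6 had 73, 50 and 55 counts in sBud, 35, 29 and 39 in sL1, 32, 39 and 41 in sL2, and 28, 22 and 21 in sS1. In CPM its order was sBud (118 ± 21), sL1 (84.0 ± 27), sL2 (55.1 ± 5.9) and sS1 (41.9 ± 3.2). The log2 fold change was 1.49 (standard error 0.33, edgeR adjusted p = 0.00421) for sBud vs. sS1 and 1.09 (standard error 0.33, edgeR adjusted p = 0.014) for sBud vs. sL2. The second call was lost with library size as the only scaling and with no filter. sBud and sL1 overlapped. cas-MIR159-37 had 26, 9 and 5 counts in sBud, 10, 10 and 2 in sL1, 2, 0 and 2 in sL2, and 0, 1 and 1 in sS1. Its level in sBud was 22.2-fold that in sS1 (95% exact interval 5.77 to 190.0, edgeR adjusted p = 0.00592). This rested in part on sBud replicate 1, without which the fitted log2 fold change went from 4.22 to 3.40 for sS1, and from 3.60 to 2.85 for sL2. It was also called higher in sL1 than in sL2, a call that was lost without sL1 replicate 1 (edgeR adjusted p = 0.0697) or sL2 replicate 2 (edgeR adjusted p = 0.0576). cas-MIR159-3, at 38, 38 and 33 counts in sBud, was higher there than in sS1 (log2 fold change 1.25, edgeR adjusted p = 0.0187), which was lost without sBud replicate 2 (edgeR adjusted p = 0.0555) or sS1 replicate 2 (edgeR adjusted p = 0.0802) and with no filter.

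Only cas-MIR159-47, of the 29 members, was lower in sL2 than in all 3 other tissues, a pattern of 9.46% of all tested IDs. It had 4, 0 and 2 counts in sL2, 22, 17 and 7 in sBud, 13, 19 and 9 in sL1, and 8, 10 and 4 in sS1. The means were 2.96 ± 3.0 CPM in sL2, 12.7 ± 4.5 in sS1, 31.5 ± 6.0 in sL1 and 31.6 ± 17.0 in sBud. The log2 fold change was 3.31 (standard error 0.74, edgeR adjusted p = 0.00236) for sBud vs. sL2 and 3.32 (standard error 0.74, edgeR adjusted p = 0.00247) for sL1 vs. sL2. Both were larger without sL2 replicate 1 (4.38 and 4.39). The difference between sS1 and sL2 (2.03, standard error 0.77, edgeR adjusted p = 0.0478) was at the threshold, and it was lost without sL1 replicate 1 or 3, sL2 replicate 2 or 3, or sS1 replicate 1 or 2 (edgeR adjusted p from 0.0529 to 0.13). Without sL2 replicate 1 it was 3.07. It was also lost with RLE size factors, with library size as the only scaling, with DESeq2, without the filter and in a fit of both tissues alone. This member was thus lowest in sL2, with the difference from the stem the least firm.

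The 10 members without a call were cas-MIR159-10, cas-MIR159-17, cas-MIR159-9, cas-MIR159-19, cas-MIR159-30, cas-MIR159-5, cas-MIR159-33, cas-MIR159-26, cas-MIR159-22 and cas-MIR159-8. The first had 2957, 1821 and 3369 counts in sBud, 1628, 2640 and 1767 in sL1, 3961, 4076 and 4329 in sL2, and 2656, 2249 and 1624 in sS1. Its mean level stayed between 3810 and 6092 CPM, a 1.60-fold range over the tissues, and in sL2 it was above sS1 by less than the minimum fold change (log2 fold change -0.68 for sS1 vs. sL2, standard error 0.18, edgeR adjusted p = 0.00756). cas-MIR159-17 had 2746, 1357 and 2475 counts in sBud, 1471, 1309 and 1060 in sL1, 3448, 2884 and 3393 in sL2, and 1463, 1603 and 1060 in sS1. Its largest difference, between sS1 and sL2, was a log2 fold change of -0.98 (standard error 0.20, edgeR adjusted p = 0.00148), which misses the minimum by little. The range of tissue means was 1.98-fold for this member and 51.4-fold for cas-MIR159-14.

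cas-MIR159-9 differed in the other direction. Its counts were 105, 93 and 118 in sBud, 81, 98 and 70 in sL1, 84, 72 and 67 in sL2, and 107, 103 and 93 in sS1. In CPM, sL2 (110 ± 16) was below sBud (209 ± 20), sL1 (196 ± 2.6) and sS1 (180 ± 13), and no sL2 library overlapped with another tissue. The log2 fold changes against sL2 were 0.92, 0.83 and 0.70 (edgeR adjusted p = 0.00913, 0.0192 and 0.0415), under the minimum of 1. cas-MIR159-30 had 52, 49 and 51 counts in sBud, 26, 33 and 36 in sL1, 42, 35 and 37 in sL2, and 26, 33 and 34 in sS1, and no comparison reached an adjusted p of 0.05. cas-MIR159-19 had 90, 50 and 31 counts in sBud, 45, 65 and 25 in sL1, 70, 61 and 65 in sL2, and 36, 50 and 44 in sS1. cas-MIR159-5 had 32, 17 and 34 in sBud, 25, 22 and 14 in sL1, 25, 34 and 18 in sL2, and 18, 18 and 18 in sS1. For both the tissue means lay within a 1.65-fold range. cas-MIR159-33 had 17, 13 and 11 counts in sBud, 5, 3 and 6 in sL1, 12, 16 and 22 in sL2, and 7, 7 and 5 in sS1. Its sBud libraries lay above those of sL1 and sS1, but the edgeR adjusted p was 0.0616 and above. cas-MIR159-26 had 2, 4 and 33 counts in sL2, so that its highest mean came from sL2 replicate 3 alone, and 3, 1 and 1 in sBud, 3, 1 and 0 in sL1, and 4, 6 and 8 in sS1. cas-MIR159-22 and cas-MIR159-8 had at most 6 counts in a library, and a difference was not detectable at this depth.

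The minor members were next set against the 2 abundant ones, whose levels differed between tissues in unlike ways. The CPM of cas-MIR159-1 was 430822 ± 1292 for sBud, 339923 ± 11172 for sL1, 275789 ± 11333 for sS1 and 254863 ± 14898 for sL2. cas-MIR159-2 had 179078 ± 16645 CPM in sL2, 30502 ± 8301 in sBud, 4378 ± 1204 in sS1 and 3515 ± 775 in sL1. The ratio of a minor member to each of these was computed as counts per 1000 counts in each library, for the 16 members with a count in every library. Between the tissue with the highest and the one with the lowest mean ratio, 11 members varied less against cas-MIR159-1 and 5 varied less against cas-MIR159-2. The level of cas-MIR159-2 itself ranged 51.0-fold over the tissue means and that of cas-MIR159-1 only 1.69-fold, so a member with a modest range must vary less against cas-MIR159-1, and the split restates the members' own ranges. This is a description, since all ratios come from the same 12 libraries and members in a family may share reads.

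cas-MIR159-30 kept the closest ratio to cas-MIR159-1, at 0.236 ± 0.042 per 1000 counts for sBud, 0.225 ± 0.061 for sL1, 0.221 ± 0.019 for sL2 and 0.204 ± 0.054 for sS1. These differ by less than their spread and cover a 1.16-fold range, against 1.81-fold for its own CPM. cas-MIR159-5 (1.27-fold), cas-MIR159-19 (1.43-fold), cas-MIR159-9 (1.51-fold) and cas-MIR159-6 (1.80-fold) came next. cas-MIR159-10 had 12.2 ± 1.5 counts per 1000 of cas-MIR159-1 in sBud, 13.9 ± 2.4 in sL1 and 13.8 ± 1.6 in sS1, which differ by less than their spread, and 23.97 ± 1.7 in sL2. This 1.96-fold range is wider than the 1.60-fold range of its own CPM. cas-MIR159-17 had 18.8 ± 2.0 in sL2 and 8.77 to 9.82 in the other tissues. cas-MIR159-24 had 26.3 ± 2.3 in sL2 and at most 9.84 on average elsewhere. The ratio of all 3 to cas-MIR159-1 was thus highest in sL2.

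The 5 members that varied less against cas-MIR159-2 were cas-MIR159-15, cas-MIR159-14, cas-MIR159-45, cas-MIR159-18 and cas-MIR159-29, all of the sL2 group. cas-MIR159-14 had 35.0 ± 10.8 counts per 1000 of cas-MIR159-2 for sBud, 31.05 ± 14.2 for sL1, 32.2 ± 11.3 for sL2 and 62.5 ± 3.2 for sS1. The first 3 tissues overlapped, and the whole range of tissue means was 2.01-fold, against 51.4-fold for its own CPM. cas-MIR159-15 had 42.0 ± 6.2 in sL2, 56.2 ± 8.3 in sBud, 152 ± 22 in sL1 and 156 ± 45 in sS1, a 3.72-fold range against 14.0-fold for its CPM. For cas-MIR159-45, cas-MIR159-18 and cas-MIR159-29 the range was 7.62-fold, 7.72-fold and 9.90-fold, against 45.7-fold, 7.10-fold and 37.1-fold for their CPM. The ratio of cas-MIR159-45 to cas-MIR159-2 was 2.96 ± 0.94 in sBud and 22.5 ± 6.5 in sL1, although its own level in CPM did not differ detectably between these tissues.

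**Figure D5:**
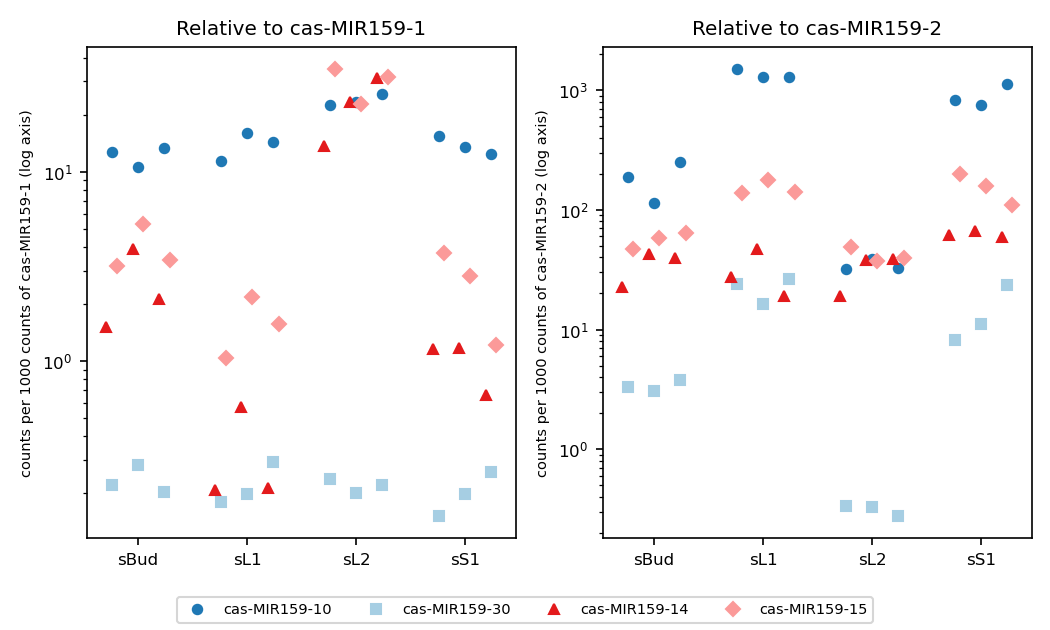
Counts of 4 minor members per 1000 counts of cas-MIR159-1 (left) or cas-MIR159-2 (right), on log axes, in the 3 libraries of each tissue (points). Relative to cas-MIR159-1, cas-MIR159-30 stays between 0.152 and 0.294 while cas-MIR159-14 spans 0.209 to 31.3, and relative to cas-MIR159-2, cas-MIR159-14 spans only 18.9 to 66.0.

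The 16 members with fewer than 10 counts had 46 counts together. These were 13, 1 and 4 in sBud, 2, 0 and 1 in sL1, 5, 4 and 11 in sL2, and 1, 1 and 3 in sS1, with overlap between tissues. A single count was all that 8 of them had, and cas-MIR159-40 had the most, 9. They take part in no test, and their levels in single tissues were not resolved at this depth.

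As a related list chosen by its ID prefix, the 8 tested miR319 IDs of 9 listed were called in the same fit. In sBud vs. sL2, 7 of 8 were higher in sL2, as were 7 of 8 in sL1 vs. sL2 and 8 of 8 in sS1 vs. sL2, and 0 were higher in the other tissue. Of all tested IDs, 20.7%, 19.4% and 18.0% were higher in sL2 in these comparisons. In sBud vs. sL1, 3 of 8 were higher in sBud, in sBud vs. sS1 2 of 8 were, and 0 of 8 were called in sS1 vs. sL1. The matching shares of all tested IDs were 7.66%, 11.7% and 0%. Of the minor miR159 members, 15 of 29 (51.7%) were called higher in sL2 than in at least 1 tissue and 5 of 29 (17.2%) lower, where all tested IDs gave 28.4% and 25.2%.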

How the data were processed

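Small RNAs of 4 tissues, with 3 libraries each, were sequenced. Per the paper's methods, reads under 20 nt, of low quality or annotated as other ncRNA classes were discarded, and the rest were matched to plant entries of miRBase. The deposited values are raw counts of reads per miRNA ID, which the authors did not normalize. They tested with DESeq and used an unadjusted p.

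Here 222 of 650 IDs, those whose counts summed to 10 or more, were fitted in R 4.3.3 with edgeR 4.0.16 (glmQLFit, glmQLFTest, TMM, a term per tissue), and p was adjusted over all of them. Counts in each library are printed for the 25 of 29 members whose mean reached 10 counts in some tissue. Fold changes were planned for the 3 largest called ones without overlap per comparison and for cas-MIR159-45. Of these, cas-MIR159-16 in sBud vs. sL2 and cas-MIR159-41 in sBud vs. sL1 are given none. Both lay near the limit of a count of 0. Other fold changes given were chosen after their values were seen. The members and lists were chosen with earlier results of these data known. The test was tried on simulated data first. Alternatives were DESeq2 1.42.0, other normalizations, filters and thresholds, fits of 2 tissues, the replicate number as a block, and each library left out.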

Additional observations from a re-analysis of the deposited data

How the results depend on the processing

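Of the 54 called pairs of a member and a comparison, 39 were called under each of 21 alternatives, 15 were not called or not tested under at least 1, and 0 changed sign. With the unadjusted p, 12 members were called in sBud vs. sS1 and 2 in sS1 vs. sL1. With no filter on low counts, sS1 vs. sL1 also gave 2, and with a library left out it gave 0 to 1. The matching share of all IDs is not given for these settings. With a library left out, the number of called members ran from 5 to 9 in sBud vs. sS1, 4 to 5 in sBud vs. sL1, 12 to 16 in sBud vs. sL2, 10 to 15 in sL1 vs. sL2 and 11 to 15 in sS1 vs. sL2. Under every other alternative it stayed within 1.5 times of the reported number. With cas-MIR159-1 and cas-MIR159-2 taken out of the library total, the share of the minor members was 7.25% in sL2, 3.32% in sBud, 1.81% in sL1 and 1.29% in sS1, in the same order. Library size alone moved the median log2 fold change of all tested IDs by -0.26 for sS1 vs. sL2, 0.18 for sBud vs. sS1 and -0.15 for sL1 vs. sL2, and RLE size factors moved it by -0.12 for sS1 vs. sL2. The replicate block gave 7 called members in sBud vs. sS1, 4 in sBud vs. sL1, 13 in sBud vs. sL2, 13 in sL1 vs. sL2, 0 in sS1 vs. sL1 and 12 in sS1 vs. sL2. The calls lost under the block were cas-MIR159-41 in sBud vs. sL1, cas-MIR159-16 in sBud vs. sL2 and sL1 vs. sL2, and cas-MIR159-20 and cas-MIR159-47 in sS1 vs. sL2. Same-numbered libraries of different tissues had deviations that correlated between -0.22 and 0.15 over IDs, and differently numbered ones between -0.19 and 0.28. No pairing by number was detected. With 3 libraries per tissue, this check cannot show whether same-numbered libraries came from the same plants.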
